A study of Melianthus elongatus with 11 samples.

Results

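The 10 genes described here encode enzymes and an activator of chlorophyll synthesis, and they were followed through 4 groups of RNA libraries from Melianthus minor, a shrub with black nectar that is also known as M. elongatus. A member is any contig, that is, any assembled transcript in the table, whose closest Arabidopsis thaliana gene is HEMA1 (AT1G58290), CHLH (AT5G13630), CHLI1 (AT4G18480), CHLD (AT1G08520), GUN4 (AT3G59400), CRD1 (AT3G56940), PORB (AT4G27440), PORC (AT1G03630), CAO (AT1G44446) or CHLG (AT3G51820). The table held 37 such contigs among 68651 contigs in all. Of these, 18 contigs of 9 loci reached a normalised read count of 10 in at least 2 of the 11 libraries and are described in full, and 19 stayed under that level. The same filter was passed by 26053 contigs in all. Without the code L libraries 17 of the 18 contigs would still have passed, the exception being Mm39672, a CHLD contig.

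Leaves and nectaries, the glands that secrete nectar, were collected outdoors in an arboretum, and the labels give no treatment, strain or transgene. Library names begin with a code, which 0-A and 0-B share as code 0, 1-A to 1-C as code 1, 2-A to 2-C as code 2 and L-A to L-C as code L. The labels file 0-A, 0-B and 1-A as mature leaf, 1-B and 1-C as presecretory nectary, the code 2 libraries as secretory nectary and the code L libraries as postsecretory nectary, but the title of 2-A says presecretory. Since these labels cross the codes, groups were set by code; the sources used here do not say what a code means. Nothing says whether libraries of a code came from separate plants, or whether tissue was pooled, so a p-value here reflects no more than library-to-library spread, which could be technical.

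Chlorophyll is made in plastids from glutamate by the tetrapyrrole pathway. Glutamyl-tRNA reductase (HEMA) commits the carbon to 5-aminolevulinic acid, from which protoporphyrin IX is assembled. There the path forks: ferrochelatase inserts iron and leads to heme and bilins, whereas magnesium chelatase, a complex of the subunits CHLH, CHLI and CHLD that GUN4 stimulates, inserts magnesium and leads to chlorophyll. CRD1 belongs to the cyclase that closes the isocyclic ring, the protochlorophyllide oxidoreductases (POR) carry out a reduction that needs light, CAO converts chlorophyll a to chlorophyll b, and CHLG attaches the phytol tail. Because free intermediates are phototoxic, plants control the reductase, the chelatase and POR closely, and most of these genes are expressed mainly in green tissue.

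In some libraries, those of code L among them, the filed tissue did not match the marker genes. The 3 leaf markers found in the table, the light-harvesting genes LHCB1 and LHCB2.1 and the Rubisco small subunit RBCS1A, summed to between 1541 and 1779.7 for code 0, 859 and 1322 for code 1, 989 and 1135 for code 2, and 14298 and 24167 for code L. The nectary markers CRC, SWEET9 and CWINV4 summed to between 1100.1 and 5796 in codes 0, 1 and 2 and to between 16.0 and 58.1 in code L, where CRC was at 4.91, 0 and 0.001. CWINV4, a cell wall invertase of nectaries, did not follow the sum: it was at 15.5 to 23.5 in code L, 0.280 to 14.2 in codes 1 and 2, and 58.2 and 38.3 in code 0, and it was called higher in code L than in code 1 (2.61). SWEET9, the sucrose exporter of nectaries, was at 1.07 and 2.86 in code 0. The pollen marker AGP6 was at 37.9 to 214 in codes 0, 1 and 2 and at 11.5 to 16.8 in code L. Column totals ran from 631454 to 1168305 and were lowest in code L (642324, 631454 and 916467). No tissue is therefore assigned to a code. In bulk RNA, fewer cells of a type and less RNA per cell cannot be told apart.

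Code L held the highest levels of chlorophyll synthesis transcripts, and the step was large at nearly every enzyme. Values of all contigs with the same closest locus were summed, and log2(sum + 1) was compared with limma; a locus is said to have risen, fallen or been called when the Benjamini-Hochberg adjusted p over all loci was under 0.05 and the log2 difference at least 1. Of the 9 loci, 9 were higher in code L than in code 0, 9 than in code 1 and 8 than in code 2, CAO being the exception in the last. The median differences were 2.09, 2.29 and 2.41 on the log2 scale. Across the 12123 loci tested, 13.2%, 13.8% and 15.0% were called higher in code L, 48.2%, 50.1% and 48.2% were called lower, and the medians were -0.98, -1.02 and -0.97. The 3 libraries of code L lay above all 8 others at each of the 9 loci. The share of all loci with that separation was not counted, so it is not read as a trait of the members. These 3 comparisons share the code L libraries and so are not independent of each other. The leaf markers were also called higher in code L, all 3 in each comparison, and their part in these results was not tested.

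**Figure D1:**
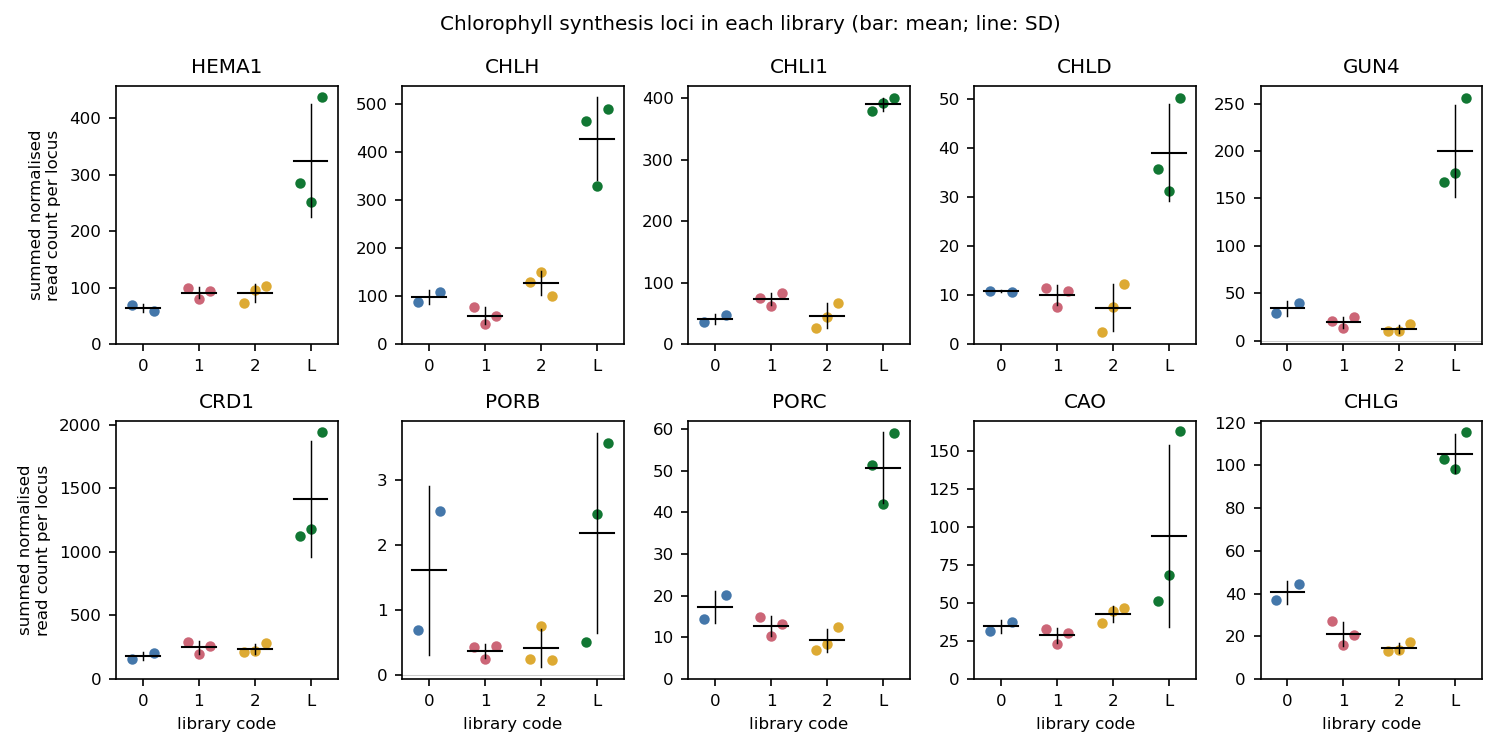
Summed normalised read count of each of the 10 loci (linear axis from 0, its own scale in each panel) by library code; points are libraries, horizontal bars means and vertical lines SD. At the 9 loci other than PORB, every code L point lies above every point of codes 0, 1 and 2, and the CAO points of code L are spread from 51.2 to 163.

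How the libraries are scaled against each other moved these values, though none of the 9 members changed direction. With scaling by the median of ratios, the median over all loci went from -0.98, -1.02 and -0.97 to -0.04, -0.05 and -0.05 for code L against codes 0, 1 and 2. The shares called higher and lower were then 23.3% and 13.5% against code 0, 24.8% and 16.6% against code 1, and 25.4% and 17.7% against code 2. Member medians under that scaling were 3.05, 3.25 and 3.29. The values below are those of the deposited scale.

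By contig the picture was the same. Of the 18 contigs, 16 were higher in code L than in code 0, 16 than in code 1 and 15 than in code 2. Called in all 3 comparisons were 14, and none was called lower. These counts include Mm39672, which passed the filter only through code L. Of the 26053 contigs tested, 13.3%, 14.4% and 15.1% were called higher in code L. The members' median differences were 2.34, 1.95 and 2.33, and those of all contigs -1.08, -1.21 and -1.18. The contigs not called in every comparison were Mm159224 (HEMA1), Mm67 (CHLH), Mm53688 (CHLD) and Mm2707 (CAO). In 13 of the 18 contigs, Mm39672 among them, no code L library overlapped the others. The share of all contigs without overlap was not counted, so the 13 are not read as a trait of the members. Because kallisto divides reads among similar contigs, how a locus is apportioned to its contigs is uncertain, and levels are not compared between genes because contig lengths were not used.

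**Figure D2:**
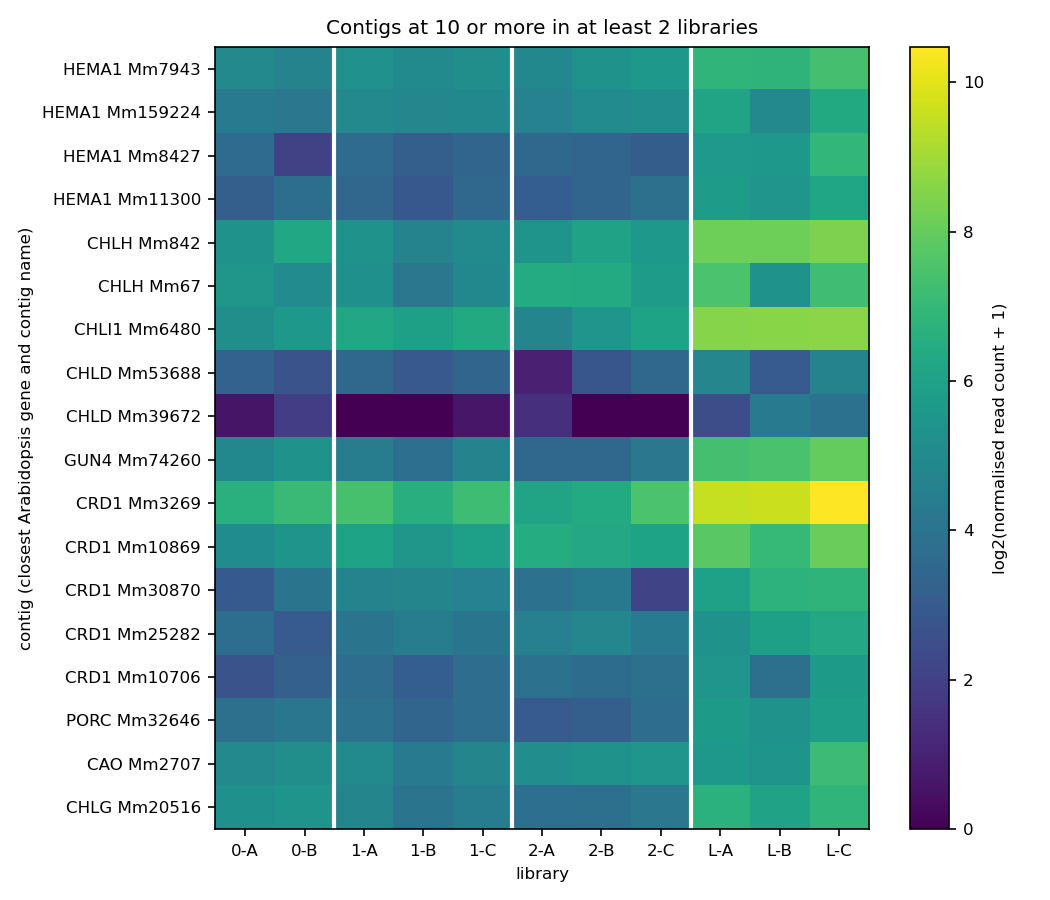
Level of each of the 18 contigs (rows, in pathway order) in each library (columns), coloured by log2(normalised read count + 1). The 3 code L columns are the brightest in most rows, and L-B is darker than L-A and L-C in Mm159224, Mm67, Mm53688 and Mm10706.

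HEMA1, the main glutamyl-tRNA reductase gene of green tissue in A. thaliana and the entry to the pathway, had 4 contigs above the filter of 6 listed. Its highest contig, Mm7943, was at 29.9 and 24.9 in code 0, at 38.9, 30.2 and 35.6 in code 1, at 28.5, 39.4 and 47.2 in code 2, and at 113, 109.8 and 164 in code L (L-A to L-C). Each code L library was well above the highest of the others, 2-C. The locus sum was 64.7 ± 7.06 (SD, n = 2) in code 0, 91.2 ± 9.52 (SD, n = 3) in code 1, 90.3 ± 16.2 (SD, n = 3) in code 2 and 325 ± 99.5 (SD, n = 3) in code L. The log2 differences of code L from codes 0, 1 and 2 were 2.27 (SE 0.27), 1.79 (SE 0.24) and 1.81 (SE 0.24), with limma adjusted p of 2.74e-05, 3.98e-05 and 3.35e-05.

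The other HEMA1 contigs differed in how far they rose. Mm8427 rose by 3.19, 2.64 and 2.73 against codes 0, 1 and 2, and its 3 code L values of 50.2, 46.9 and 122 were far above the 3.20 to 11.8 of the others. Mm11300 rose by 2.32, 2.50 and 2.34. Mm159224 was called against code 0 only, with a log2 difference of 1.52; against codes 1 and 2 it differed by 0.91 and 0.86. Its value in L-B, 29.6, lay among those of codes 1 and 2, whereas L-A and L-C were at 68.0 and 81.4. Without L-B those differences were 1.35 and 1.30, and both were called.

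HEMA2, the sister gene expressed more evenly over the plant in A. thaliana, was not called in any comparison with code L and stood at 28.6 to 34.5 there and at 21.6 to 35.1 elsewhere; with median-of-ratios scaling it was called against codes 0 (1.35) and 1 (1.30). The log2 ratio of HEMA1 to HEMA2 within a library, with 1 added to each sum, was 1.02 to 2.104 in codes 0, 1 and 2 and 3.20, 3.09 and 3.63 in code L (L-A to L-C). The 2 genes are similar enough in A. thaliana that reads may have been shared between their contigs.

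Magnesium chelatase rose in all its subunits. CHLH, the large subunit that binds the porphyrin, had its highest contig, Mm842, at 41.0 and 74.8 in code 0, at 40.2, 24.7 and 30.5 in code 1, at 42.4, 64.8 and 46.5 in code 2, and at 282, 287 and 336 in code L. The code L values were close together and well clear of the rest. Mm842 rose by 2.42 (SE 0.31), 3.23 (SE 0.28) and 2.55 (SE 0.28) against codes 0, 1 and 2 (limma adjusted p = 9.99e-05, 4.64e-06 and 1.86e-05).

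The other CHLH contig, Mm67, behaved differently across libraries. It was at 45.4 and 32.0 in code 0, at 37.0, 16.7 and 28.6 in code 1, at 85.8, 83.3 and 53.1 in code 2, and at 183, 41.2 and 150.4 in code L (L-A to L-C). Code 2 was above codes 0 and 1 in every library, and L-B fell among the lower codes while L-A and L-C were the highest of all. Mm67 was called higher in code L than in code 0 (1.43) and code 1 (1.96) but not code 2, where the difference was 0.52 (SE 0.50; limma adjusted p = 0.36) and, without L-B, 1.19 and called. The call against code 0 had a limma adjusted p of 0.0415. That call was lost without either code 0 library (1.68 and 1.19), and without L-A (1.03) or L-C (1.17). With the difference itself unchanged, it was also lost without 1-C, without 2-B and without 1-A and 2-A together. The same held with no filter and in a fit of codes 0 and L alone. The locus sum was 98.9 ± 14.9 (SD, n = 2), 59.6 ± 18.1, 128 ± 25.5 and 429 ± 86.3 (SD, n = 3 each) in codes 0, 1, 2 and L. It was higher in code L by 2.09, 2.85 and 1.74.

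CHLI1, an ATPase subunit of the chelatase, rested on 1 contig above the filter, Mm6480. It was at 35.4 and 46.7 in code 0, at 74.1, 60.9 and 81.3 in code 1, at 26.7, 44.1 and 65.985 in code 2, and at 377, 390.0 and 398 in code L. The code L libraries were close together, with a locus sum of 389.9 ± 11.02 (SD, n = 3). The locus rose by 3.22 (SE 0.32), 2.40 (SE 0.29) and 3.15 (SE 0.29) against codes 0, 1 and 2 (limma adjusted p = 8.92e-06, 1.70e-05 and 2.15e-06), and the first of these was the largest of the 9 loci against code 0.

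CHLD, the subunit that links CHLI to CHLH, was low, and its contigs divided the code L signal in different ways. Mm53688 was at 8.70 and 5.47 in code 0, at 10.3, 6.51 and 9.68 in code 1, at 0.931, 5.92 and 10.8 in code 2, and at 27.9, 7.17 and 24.8 in code L (L-A to L-C). Mm39672 was at 0.489 and 2.77 in code 0, at 0, 0 and 0.531 in code 1, at 1.65, 0 and 0.004 in code 2, and at 4.76, 19.5 and 14.5 in code L. L-B was thus low in one contig and high in the other.

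The CHLD sum was steadier than its parts, at 35.7, 31.3 and 50.3 in code L (L-A to L-C) and at 2.58 to 12.3 in the other libraries. It rose by 1.73 (SE 0.44), 1.85 (SE 0.40) and 2.41 (SE 0.40) against codes 0, 1 and 2 (limma adjusted p = 0.00411, 0.00111 and 1.67e-04). Mm39672 was called in all 3 comparisons with code L, but it passed the filter only through code L. Its call against code 0 was lost with a pseudocount of 0.1 (3.10; limma adjusted p = 0.0759) and without 0-A (1.70). Mm53688 was called against code 2 only (1.76), and that call was lost without 2-A (1.02), L-A (1.43) or L-C (1.51).

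GUN4, the porphyrin-binding protein that stimulates the chelatase and takes part in plastid-to-nucleus signalling, had a single contig, Mm74260. It was at 28.7 and 39.7 in code 0, at 20.3, 13.3 and 24.8 in code 1, at 10.3, 10.2 and 17.2 in code 2, and at 168, 177 and 256 in code L. Code 0 lay above codes 1 and 2 without overlap, and code L was far above code 0. GUN4 rose by 2.51 (SE 0.32), 3.31 (SE 0.29) and 3.90 (SE 0.29) against codes 0, 1 and 2 (limma adjusted p = 4.88e-05, 1.86e-06 and 5.08e-07). The last 2 were the largest differences of the 9 loci in their comparisons, and mean levels in code L were 10.3 times those of code 1 and 15.9 times those of code 2.

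CRD1, the catalytic subunit of the cyclase, had the most contigs, 5 above the filter of 9 listed. The highest, Mm3269, was at 98.6 and 133 in code 0, at 170.5, 95.6 and 146 in code 1, at 69.3, 84.4 and 181 in code 2, and at 756, 784 and 1421 in code L (L-A to L-C). L-C was far above L-A and L-B, and all 3 were above every other library. The 5 contigs were called higher in code L in all 3 comparisons, by 2.07 to 3.03 against code 0, 1.47 to 2.81 against code 1 and 1.18 to 3.20 against code 2.

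The smallest CRD1 difference was that of Mm10706 against code 2 (1.18), a call lost without 2-B (1.12), L-A (0.96) or L-C (0.83). It stood at 42.9, 13.7 and 51.0 in code L, so that L-B was within the 12.1 to 14.4 of code 2. Mm25282 rose by 2.49, 1.71 and 1.28 against codes 0, 1 and 2, the last not called with 1 weight per library (0.97). The locus sum was 182 ± 35.1 (SD, n = 2), 249 ± 48.2, 239 ± 40.6 and 1415 ± 456 (SD, n = 3 each) in codes 0, 1, 2 and L, with log2 differences of 2.92 (SE 0.30), 2.48 (SE 0.27) and 2.53 (SE 0.27) and limma adjusted p of 1.02e-05, 7.69e-06 and 5.86e-06.

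Of the light-dependent oxidoreductases, PORB had 1 contig, Mm392308, which reached at most 3.57, in L-C, and was not tested. PORC rested on Mm32646, at 13.6 and 16.2 in code 0, at 14.6, 9.55 and 12.5 in code 1, at 6.98, 8.12 and 12.4 in code 2, and at 51.1, 40.2 and 56.3 in code L. PORC rose in code L by 1.50 (SE 0.29), 1.91 (SE 0.26) and 2.36 (SE 0.26) against codes 0, 1 and 2 (limma adjusted p = 6.33e-04, 3.70e-05 and 7.53e-06). PORA, the third A. thaliana form and no member, was at 244, 245 and 313 in code L and at 31.9 to 79.2 elsewhere. The closest locus of a contig need not separate the related POR genes, so how their reads divide among PORA, PORB and PORC is uncertain.

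CAO, which makes chlorophyll b, had the smallest difference of the 9 loci in each comparison with code L. Its only contig above the filter, Mm2707, was at 29.8 and 35.4 in code 0, at 30.0, 18.9 and 27.2 in code 1, at 33.7, 40.1 and 44.1 in code 2, and at 47.2, 41.7 and 142 in code L (L-A to L-C). L-C alone was far above the other 10 libraries, and L-B was below 2-C. Mm2707 was called against code 1 only (1.36; limma adjusted p = 0.00947), a call lost without L-C (0.81).

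The CAO sum over 5 contigs was 34.8 ± 4.22 (SD, n = 2), 28.7 ± 5.13, 42.8 ± 5.40 and 94.1 ± 60.2 (SD, n = 3 each) in codes 0, 1, 2 and L. It was called against code 0 (1.23, SE 0.39) and code 1 (1.51, SE 0.35) but not against code 2 (0.95, SE 0.35; limma adjusted p = 0.0262). The call against code 0 was lost without L-C (0.75), without 0-A (1.11) and with 1 weight per library (0.90). Under equal totals the difference from code 2 was 1.54, and under median-of-ratios scaling 1.86, and both were called.

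CHLG, the chlorophyll synthase of the last step, rested on Mm20516, at 36.9 and 41.4 in code 0, at 26.2, 15.4 and 19.9 in code 1, at 13.0, 13.7 and 17.4 in code 2, and at 102, 65.4 and 115 in code L. The locus sum in code L was 105 ± 9.10 (SD, n = 3), since contigs under the filter added to L-B. It rose by 1.35 (SE 0.25), 2.29 (SE 0.22) and 2.77 (SE 0.22) against codes 0, 1 and 2 (limma adjusted p = 5.41e-04, 4.23e-06 and 9.48e-07). As for CHLD, GUN4 and PORC, the difference from code L was smallest for code 0 and largest for code 2.

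**Figure D3:**
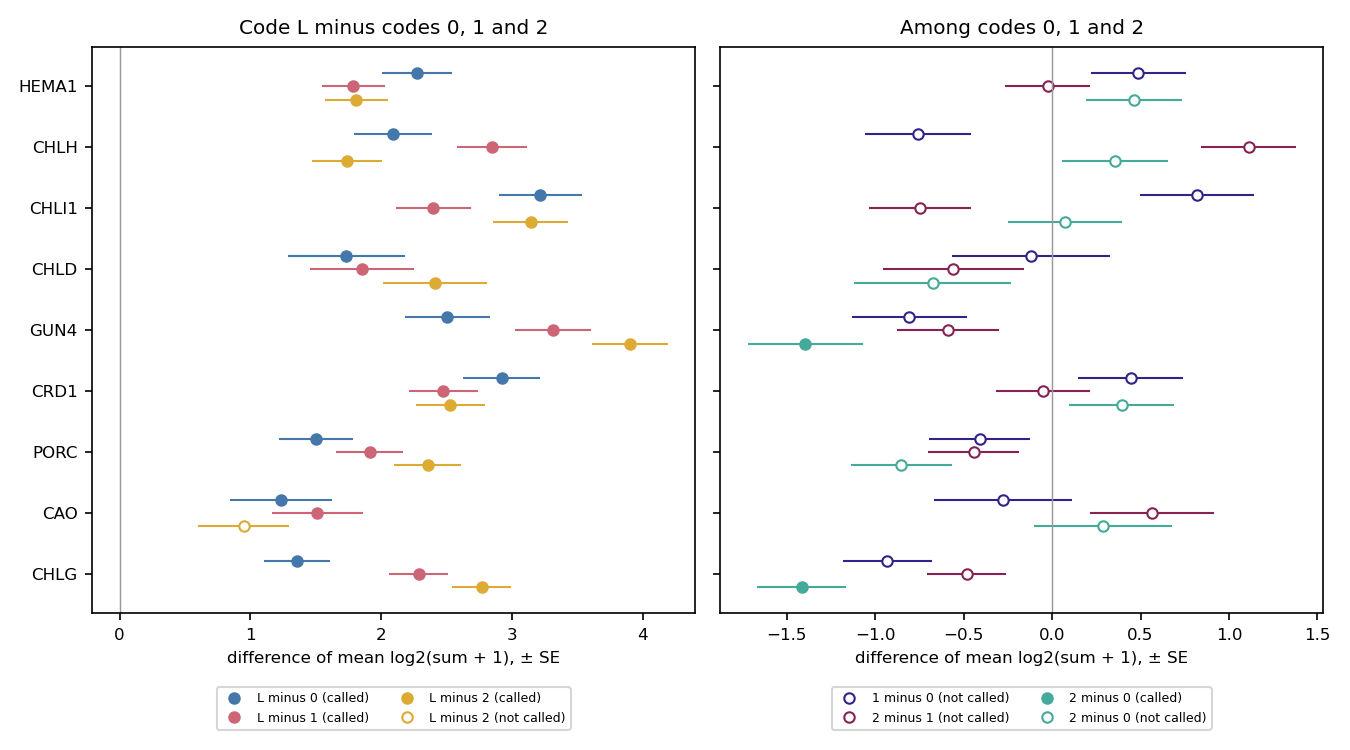
Log2 differences between codes (points, with SE as bars) for the 9 loci; filled points were called and open points were not. In the left panel all differences of code L are above 0, CAO against code 2 being the only open point; in the right panel only GUN4 and CHLG, code 2 minus code 0, are filled.

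Within code L, the split of a locus among its contigs differed between libraries. Of the 18 contigs above the filter, L-B was the lowest of the 3 code L libraries in 11 and the highest in 1. Of the 19 contigs under it, L-B was the highest of the 3 in 7 and the lowest in 5. A contig high in 1 library alone falls under the filter by its rule. The matching shares over all contigs were not counted, so these counts are not read as a trait of the members. The CRD1 contigs Mm276578 and Mm170704 were at 52.5 and 26.0 in L-B and listed at 0 in the other 10 libraries. Mm249634 (CAO) was at 18.9 in L-B and at most 3.42 elsewhere, Mm283952 and Mm307808 (CHLG) at 19.4 and 13.3 and at most 1.19 and 2.47 elsewhere, and Mm194322 (HEMA1) at 20.5 and at most 8.86 elsewhere. Contigs above the filter carried 66.7% of the CHLG sum and 61.1% of the CAO sum in L-B, against 98.8% and 92.1% in L-A and 99.4% and 87.3% in L-C. The share was also lowest in L-B at HEMA1 (91.7%) and CRD1 (93.0%), but lowest in L-C at CHLD (78.1%, against 85.0% in L-B), CHLH (99.2%), CHLI1 (99.4%) and PORC (95.5%).

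Over the whole table, 27 contigs, with 0.124% of the L-B total, were at 10 or more in L-B and under 1 in every other library; the other libraries had 0 to 18 such contigs. Mm276578 and Mm170704 are among the 27. A contig listed at 0 could reflect an estimate that failed rather than an absent transcript. At the edge of the filter, the contigs just inside were Mm39672 and Mm53688, whose next-highest libraries were at 14.5 and 24.8. The closest outside were Mm194322, with 20.5 in its highest library and 8.86 in the next, and Mm457417, with 6.11 and 4.26.

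**Figure D4:**
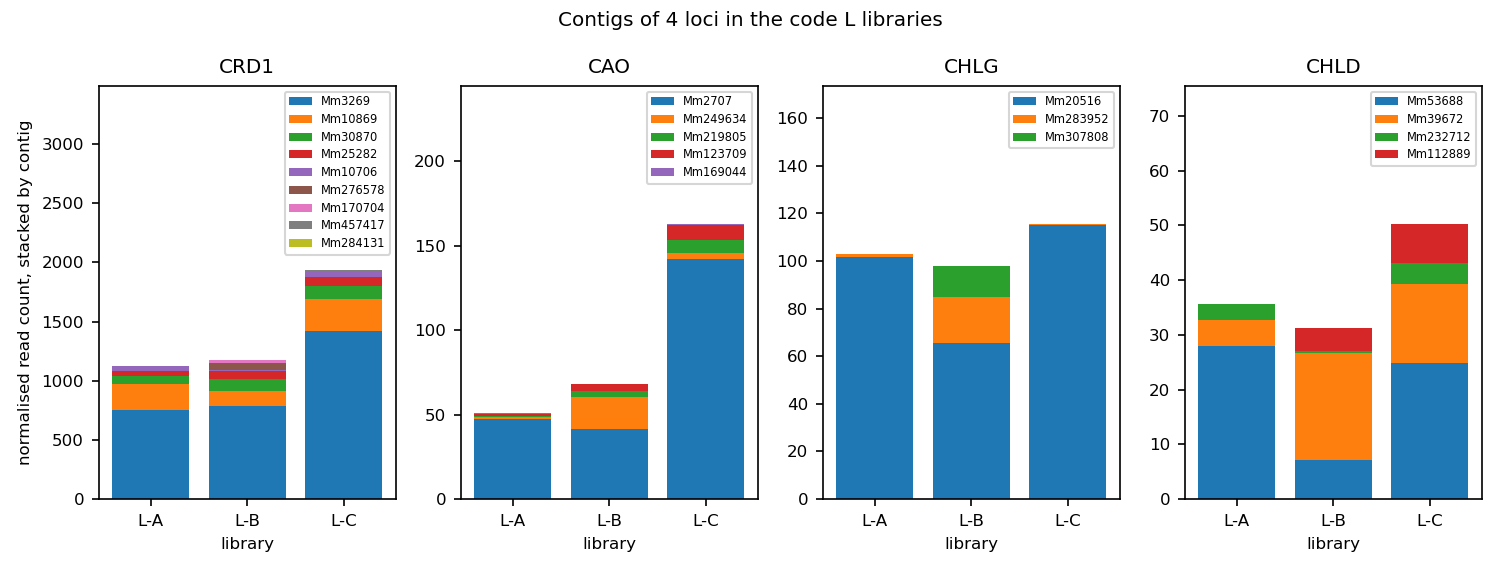
Normalised read counts of all contigs of CRD1, CAO, CHLG and CHLD in code L (L-A to L-C), stacked so that the bar height is the locus sum; each panel has its own axis from 0. L-B holds parts of the sum in contigs that L-A and L-C hold little or none of, such as Mm276578 (52.5), Mm249634 (18.9) and Mm307808 (13.3).

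Among codes 0, 1 and 2 few of the enzymes passed the test. Between codes 1 and 0, 0 of 9 loci and 0 of 18 contigs were called by limma, with 4 loci and 5 contigs at an unadjusted p under 0.05. Over all features tested, 22.2% of loci and 25.8% of contigs were called between these codes in either direction. Between codes 2 and 1, 0 of 9 loci and 0 of 18 contigs were called by limma, with 2 and 4 at an unadjusted p under 0.05, where 1.37% of all loci and 1.17% of all contigs were called. Between codes 2 and 0, 2 loci and 4 contigs were called, where 22.7% of all loci and 24.0% of all contigs were. The share of members called between codes 2 and 0 was thus at or near that of the table.

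The 2 loci that fell between codes 0 and 2 were GUN4 and CHLG. GUN4 fell from 34.2 ± 7.81 (SD, n = 2) to 12.6 ± 4.03 (SD, n = 3), a log2 difference of -1.40 (SE 0.32; limma adjusted p = 0.00744), with 19.5 ± 5.82 (SD, n = 3) in code 1. CHLG fell from 40.7 ± 5.38 (SD, n = 2) to 14.7 ± 2.41 (SD, n = 3), a log2 difference of -1.42 (SE 0.25; limma adjusted p = 0.00148), with 21.2 ± 5.58 (SD, n = 3) in code 1. In both genes each library of code 2 was below each library of code 0. Both calls were lost when libraries were grouped as filed (-1.16 and -1.23), a grouping under which 0.0% of all loci were called higher and 0.1% lower, and that of GUN4 without 0-B (-1.17; limma adjusted p = 0.0986). The contigs Mm74260 (GUN4, -1.395) and Mm20516 (CHLG, -1.36) were called too, but neither when grouped as filed. Mm20516 was not called without 0-A (-1.45) or 0-B (-1.28). Mm74260 was not called without 0-B (-1.17) or without 1-A and 2-A (-1.28).

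PORC had the same order, at 17.3 ± 3.95 (SD, n = 2) in code 0, 12.7 ± 2.32 (SD, n = 3) in code 1 and 9.25 ± 2.83 (SD, n = 3) in code 2, but its difference between codes 2 and 0 was -0.85, short of the size required, and called without 2-C (-1.07). CHLG differed between codes 1 and 0 by -0.93, also short of it, and was called under equal totals (-1.07; limma adjusted p = 0.00517) and without 1-A (-1.11; limma adjusted p = 0.0128). Among the leaf markers, RBCS1A and LHCB1 were called lower in codes 1 and 2 than in code 0, by 1.05 to 1.31 in size. LHCB2.1 stood the other way, 1.12 above code 0 in code 1 and 0.78 above it in code 2, not called (limma adjusted p = 0.0707 and 0.199) except for code 1 with median-of-ratios scaling (1.10). The markers' part in the GUN4 and CHLG differences was not tested.

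Within CRD1 the contigs moved apart between codes 2 and 0 while the sum did not pass. Mm10869 rose from 33.0 and 42.2 in code 0 to 88.3, 78.1 and 67.2 in code 2, by 1.03 (SE 0.32; limma adjusted p = 0.0356). Mm25282 rose from 12.6 and 7.07 to 22.9, 27.9 and 19.5, by 1.21 (SE 0.33; limma adjusted p = 0.0215). The groups did not overlap in either contig. The highest CRD1 contig, Mm3269, differed by -0.17, and the locus by 0.39 (limma adjusted p = 0.354). Both contig calls were lost without 0-B (1.21 and 0.83) or 2-B (1.03 and 1.08), and that of Mm10869 also without 0-A (0.86), 1-C (1.03) or 2-A (0.94). Leaving out 1-A and 2-A together also lost both calls (0.94 and 1.22). Grouped as filed neither was called (0.76 and 0.99). Under equal totals Mm10869 was not called (0.89), nor with the replicate block (0.98, limma adjusted p = 0.053). In a fit of codes 0 and 2 alone Mm25282 was not called (1.21, limma adjusted p = 0.0536).

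The proportion of CHLH to CHLI1 RNA across codes is given here as a description only. CHLH was higher in code 2 than in code 1 in every library, at 131, 152 and 101 against 77.8, 41.7 and 59.2, and CHLI1 was mostly lower, at 26.9, 44.2 and 67.3 against 75.7, 62.4 and 82.6. Neither difference passed, at 1.11 for CHLH (SE 0.27; limma adjusted p = 0.0748) and -0.75 for CHLI1 (SE 0.29; limma adjusted p = 0.339). CHLH was called under equal totals (1.11), median-of-ratios scaling (1.17), with 1 weight per library (1.14) and without 2-C (1.27), and CHLI1 was called lower without 2-C (-1.06; limma adjusted p = 0.0243). The log2 ratio of CHLH to CHLI1 within a library, again with 1 added to each sum, was 1.29 and 1.19 in code 0, 0.04, -0.57 and -0.48 in code 1, 2.24, 1.75 and 0.58 in code 2 and 0.30, -0.25 and 0.29 in code L. Codes 0 and 2 were both above codes 1 and L, without overlap. This ratio was not tested.

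The log2 ratio of GUN4 to CHLH was lowest in code 2, at -3.54, -3.77 and -2.48, and lay between -1.89 and -1.22 in codes 0 and 1. In code L it was -1.47, -0.90 and -0.93. As a description, Pearson's r of log2 sums between pairs of the 9 loci was taken over the 8 libraries of codes 0, 1 and 2. It ran from -0.61 (CHLH and CHLI1) to 0.95 (GUN4 and PORC). The median was 0.06 over 36 pairs, 20 of them positive. GUN4, PORC and CHLG formed the closest trio, with r of 0.92 to 0.95, and CHLH went with CAO (0.87).

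The remaining steps of the pathway, from a list of 19 loci of which 16 were tested, gave counts of the same kind. Against codes 0, 1 and 2, 14, 12 and 14 of the 16 were higher in code L and 0 lower by limma, with medians of 1.66, 1.82 and 2.17. The largest were DVR, the divinyl reductase, against code 0 (2.64) and code 2 (3.50), and CHLM, the methyltransferase between the chelatase and the cyclase, against code 1 (2.87). DVR passed the filter only through code L, so its rise there is not independent of the filter. CHLM was at 237, 181 and 259 in code L and at 25.9 to 54.4 elsewhere. HEMA2 and GSA1, early enzymes that each have a sister gene in A. thaliana, were the loci called in none of the 3. PORA was the only one called among codes 0, 1 and 2, lower in code 1 (-1.02; limma adjusted p = 0.00448) and code 2 (-1.04; limma adjusted p = 0.00403) than in code 0.

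At the fork to heme, the ferrochelatases went opposite ways. FC2, the form linked to green tissue in A. thaliana, was at 186, 189 and 302 in code L and at 30.9 to 53.5 elsewhere, and rose by 2.03, 2.63 and 2.53 against codes 0, 1 and 2. FC1, the form expressed also in non-green organs, was at 26.4, 20.4 and 26.5 in code L against 51.8 to 114 elsewhere, with differences of -1.07, -1.995 and -2.09. Of the 7 loci tested in the heme, bilin and siroheme branches, 2, 4 and 4 were higher in code L and 1, 2 and 1 lower; with median-of-ratios scaling 4, 4 and 4 were higher and 0, 1 and 1 lower. HO2 and HY2, counted among them, passed the filter only through code L. Between codes 2 and 0, FC1 rose (1.02; limma adjusted p = 0.0049; 0.87 and not called under equal totals) and HO1, a heme oxygenase of bilin synthesis, fell (-1.13; limma adjusted p = 0.0138). No locus was called between codes 1 and 0 or 2 and 1. With median-of-ratios scaling FC1 was no longer called against code 0 (-0.14) but still against codes 1 and 2.

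Genes of chlorophyll breakdown and of the cycle between chlorophylls a and b gave 5, 3 and 7 of 11 loci higher in code L and 0, 3 and 2 lower against codes 0, 1 and 2. These counts depended on the scaling: with the median of ratios 7, 7 and 8 were higher and 0, 1 and 0 lower, and under equal totals 6, 5 and 7 were higher and 0, 1 and 1 lower. CLH1, a chlorophyllase, was at 43.6, 31.3 and 48.4 in code L and at most 2.53 elsewhere, and rose by 3.70, 4.62 and 4.80. It passed the filter through code L alone. SGR1, the magnesium dechelatase known as STAY-GREEN, was at 12.3, 8.74 and 12.8 in code L, 12.3 and 19.0 in code 0, 80.0, 42.4 and 65.7 in code 1 and 22.7, 30.7 and 61.6 in code 2. SGR1 was lower in code L than in code 1 (-2.34) and code 2 (-1.57; -0.70 and not called with median-of-ratios scaling), and higher in code 1 than in code 0 (1.92; limma adjusted p = 0.00378). Between codes 1 and 0, NYC1 and PAO also rose and RCCR fell (-1.11). The NYC1 rise (1.42) was not called under equal totals (1.27, limma adjusted p = 0.0579). Between codes 2 and 0, SGR1 rose (1.15, limma adjusted p = 0.0498, and 0.0781 under equal totals), and CLH2 (-1.62) and RCCR fell. No locus was called between codes 2 and 1.

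**Figure D5:**
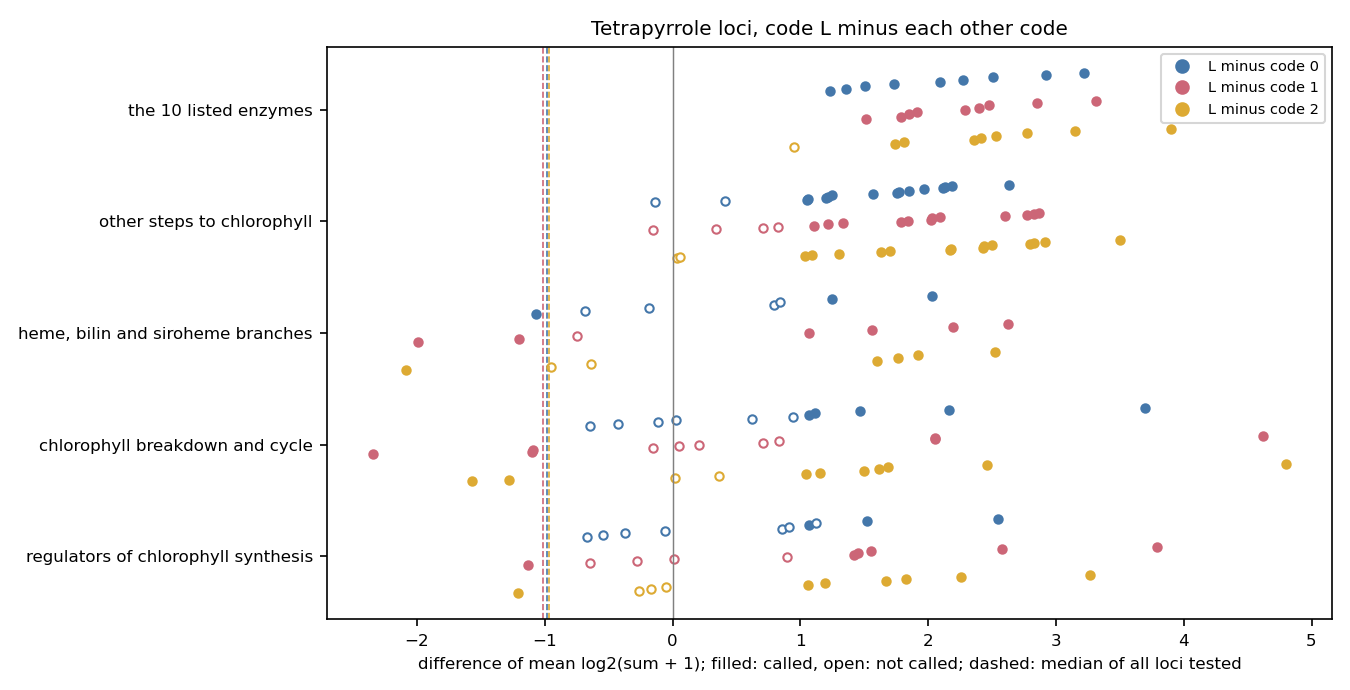
Log2 difference of code L from codes 0, 1 and 2 for every tested locus of the chlorophyll synthesis enzymes and of the 4 lists of other tetrapyrrole genes; filled points were called, open points were not, and dashed lines mark the medians of all loci tested (-0.98, -1.02 and -0.97). Called points of the 2 synthesis groups lie only to the right of 0 on the deposited scale, and those of the other 3 lists on both sides.

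Among regulators of chlorophyll synthesis, 3, 5 and 6 of 10 loci were higher in code L and 0, 1 and 1 lower against codes 0, 1 and 2. Under equal totals and with median-of-ratios scaling, 6, 6 and 6 were higher and 0 lower. CGA1, a GATA factor that promotes greening, was at 128, 154 and 232 in code L and at 71.7 and 108 in code 0, and only at 8.43 to 26.3 in codes 1 and 2. It was lower in codes 1 and 2 than in code 0 by -2.88 and -2.36, and higher in code L than in codes 1 and 2 by 3.79 and 3.27. GLK1, an activator of photosynthesis genes, was at 88.3, 74.7 and 190.1 in code L, at 16.1 and 19.3 in code 0 and at 38.4 to 80.3 in codes 1 and 2. It was higher in code L than in code 0 (2.55) and code 2, and higher in code 2 (1.49) and code 1 than in code 0. Code L against code 1 was not called for GLK1 (0.90), but was under equal totals (1.49) and median-of-ratios scaling (1.87). FAR1, an activator of HEMB1 in A. thaliana, was lower in code L than in code 1 (-1.13) and code 2 (-1.21), calls lost under equal totals (-0.57 and -0.64) and with median-of-ratios scaling (-0.20 and -0.33). PIF3 was also higher in code 1 than in code 0 (1.77), where PIF1 and LIL3:2 were lower. No locus was called between codes 2 and 1.

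Outside these lists, the loci whose log2 sum followed the mean of the 9 standardised members most closely over the 11 libraries were AT1G43670 (inositol monophosphatase family, r = 0.994), AT1G65260 (plastid transcriptionally active 4, r = 0.994), AT2G20890 (the photosystem II protein PSB29, r = 0.994), AT5G67030 (zeaxanthin epoxidase, r = 0.993) and AT5G45680 (FK506-binding protein 13, r = 0.993). AT1G43670 was at 958, 822 and 1611 in code L and at 32.4 to 69.997 elsewhere. Since code L stands apart, an r this high mainly reports that a locus is higher there, and 927 of the 12123 loci had an r over 0.9. Over the 8 libraries of codes 0, 1 and 2, these 5 loci had r of 0.87, 0.90, 0.94, 0.82 and 0.85. The members themselves had r of 0.07 (CHLH) to 0.84 (CHLD) there. Each member is part of the mean it was set against, unlike the loci outside the lists, so the 2 kinds of r are not comparable. The 5 highest loci outside the lists over those 8 libraries had r of 0.96 to 0.98. Over the 11 libraries the r of those loci ran from -0.86 to 0.51.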

How the data were processed

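RNA from leaves and nectaries was sequenced in paired-end runs after kit extraction and DNase treatment, per the labels' protocols. The submitters' processing notes name kallisto 0.46.1. Per the file headers, the authors deposited normalised read counts, a normalised read signal in 1 column per library. The values are not whole. Library scaling, contig assembly and the choice of contigs are details not given in the sources used here. Depth in reads is unknown, so no interval needing it is given, and shares called are shares of this table.

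Contigs and locus sums at 10 or more in at least 2 libraries were kept (26053 contigs, 12123 loci). After adding 1 and taking log2, limma 3.58.1 under R 4.3.3 compared them (empirical Bayes with trend, all 11 libraries, 1 mean per code), two-sided, with Benjamini-Hochberg adjustment over all features kept; a call needed an adjusted p below 0.05 together with a log2 difference of 1 or more in size. This scale understates changes of low features. The code was tested on simulated data. Plots came from matplotlib 3.10.9 (Python 3.11.15). Members, gene lists and tests were chosen with earlier results of these data known. For each locus the highest contig is given in every library, other contigs are named where called in any comparison, and from each list the called locus with the largest difference in each direction is named, with others named after their values were seen; the likeness rule took the 5 loci of highest r outside the lists. Alternatives were 2 other scalings, a pseudocount of 0.1, no filter or one of 50, library weights, fits of the 2 codes compared, a replicate block, grouping as filed and leaving out each library; leaving out 1-A with 2-A was chosen after seeing the data.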

Additional observations from a re-analysis of the deposited data

How the results depend on the processing

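Counts of members called higher in code L stayed within 1.5 times of those given under every alternative, contigs and loci alike; counts among codes 0, 1 and 2 moved more. Between codes 1 and 0 (0 called), contigs numbered 1 under equal totals, with library weights, in a fit of the 2 codes and without 1-A and 2-A, and 0 to 1 with any 1 library left out; loci numbered 1 under equal totals and without 1-A and 2-A, and 0 to 1 with 1 library left out. Between codes 2 and 1 (0 called), 1 contig was called with library weights and 0 to 1 with 1 library left out; 1 locus was called under equal totals, median-of-ratios scaling and library weights, and 0 to 2 with 1 library left out. Between codes 2 and 0 (4 contigs, 2 loci), grouping as filed gave 0 contigs and 0 loci (over the table it called 0.0% of contigs, and 0.0% of loci higher and 0.1% lower, so this says nothing about the members), leaving out 1-A and 2-A gave 1 contig, and leaving out 1 library gave 0 to 4 contigs and 1 to 4 loci. The cause was not tested. With the letter of the library code as a replicate block, 2 contigs and 1 locus were called between codes 1 and 0. Deviations of same-letter libraries correlated at -0.126 to 0.236, so the letters are not shown to pair libraries. Over 162 single differences and 21 alternatives, 48 calls were lost, 46 gained and 0 reversed in direction.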
